A study of Mus musculus with 12 samples.

Results

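The genes described here are 34 nuclear genes for fatty acid oxidation, the pyruvate dehydrogenase step and the TCA cycle, read in the whole tibialis anterior, a fast muscle of the lower leg, from male C57BL/6 mice. They were taken by gene symbol from the 12752 genes of the count table, and each symbol matched 1 row. Of the 34, 20 belong to fatty acid uptake and oxidation, 3 to the pyruvate dehydrogenase step and 11 to the TCA cycle, and all 34 passed the filter on low counts that left 12751 genes in the test. The muscles had been injected at 8 weeks of age, and doxycycline chow (600 mg/kg) or standard chow began 7 days later. DUX_DOX muscles received AAV:TET and AAV:Dux and then doxycycline chow, EV_DOX muscles AAV:TET and the empty vector AAV:MCS with doxycycline chow, DUX muscles AAV:TET and AAV:Dux with normal chow, and EV muscles AAV:TET and AAV:MCS with normal chow. Each group holds 3 poly-A RNA-seq libraries, and AAV:TET was common to all 4 groups. In these mice the empty vector and AAV:Dux went into opposite limbs, and the labels do not say which libraries come from 1 animal. They also give doxycycline feeding as 2 or 7 days, vector dose as a range and no promoter for Dux, without saying what applies to these libraries. Dux, a mouse counterpart of human DUX4, is the double-homeobox factor studied as a cause of muscle damage in facioscapulohumeral dystrophy.

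Muscle fibres burn long-chain fatty acids in their mitochondria. The acids enter the cell, are activated to acyl-CoA, cross the inner membrane as carnitine esters and are shortened by rounds of dehydrogenation, hydration, a further dehydrogenation and thiolysis, each round releasing acetyl-CoA. The pyruvate dehydrogenase complex makes acetyl-CoA from the end product of glycolysis, and the TCA cycle oxidises acetyl-CoA from both sources, passing electrons to the respiratory chain. In mouse muscle many of these genes are targets of the nuclear receptors PPAR and ERR with their coactivator PGC-1alpha, and their transcripts are more abundant in oxidative than in glycolytic fibres.

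Levels below are CPM, counts scaled to library totals that were adjusted by TMM factors. Fold changes are log2 values with their standard errors (SE) from edgeR's quasi-likelihood test, with p-values adjusted over the 12751 genes by the Benjamini-Hochberg method. A gene is said to have risen or fallen where that adjusted p was under 0.05. Library totals ran from 11880593 to 13811999 counts. Zscan4c, a known Dux target whose reads cannot be separated from near-identical copies, had 283, 522 and 409 raw counts in the DUX_DOX libraries and at most 1 in the other 9 libraries. Fast fibre genes, the defining genes of this muscle, summed to 156140.1 to 175499 CPM in DUX_DOX, 188777 to 206391 CPM in EV_DOX, 184598 to 206787 CPM in DUX and 196504 to 206675 CPM in EV. Nothing in the labels says that replicate libraries are different animals, so the p-values measure only the spread between these libraries, which may be technical. In whole muscle, fewer fibres and less RNA per fibre cannot be told apart.

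Under doxycycline chow, 13 of the 34 genes fell in DUX_DOX against EV_DOX and 0 rose, where 10.3% of all genes tested fell and 14.9% rose. The genes that fell were Cpt1b, Cpt2, Acadvl, Acadm, Echs1, Hadh, Acaa2, Decr1 and Etfdh of fatty acid oxidation, Pdha1 of pyruvate dehydrogenase, and Idh3a, Dld and Sucla2 of the TCA cycle. Fitted log2 fold changes were negative in 33 of 34 genes, with a median of -0.31, against a median of -0.01 over all genes tested. In 17 of 34 genes all 3 DUX_DOX libraries lay below all 3 EV_DOX libraries, which held for 17.3% of all genes tested. Of the 13 calls, 7 (Cpt2, Echs1, Hadh, Decr1, Pdha1, Dld and Sucla2) held under every one of the 19 alternatives run. The count was 7 without DUX_DOX 2, 8 without DUX_DOX 3, 20 without EV_DOX 1 and 8 without EV_DOX 3. That last count included 1 gene, Fabp3, that was higher. Over all genes tested, 1319 were called lower with all libraries. This number was 1022 without DUX_DOX 2, 739 without DUX_DOX 3, 1325 without EV_DOX 1 and 916 without EV_DOX 3. Library EV_DOX 3 stood above its group mean in 34 of 34 genes and EV_DOX 1 in 2 of 34. Without EV_DOX 3 the median log2 fold change of the 34 genes was -0.19, and without EV_DOX 1 it was -0.39.

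**Figure D1:**
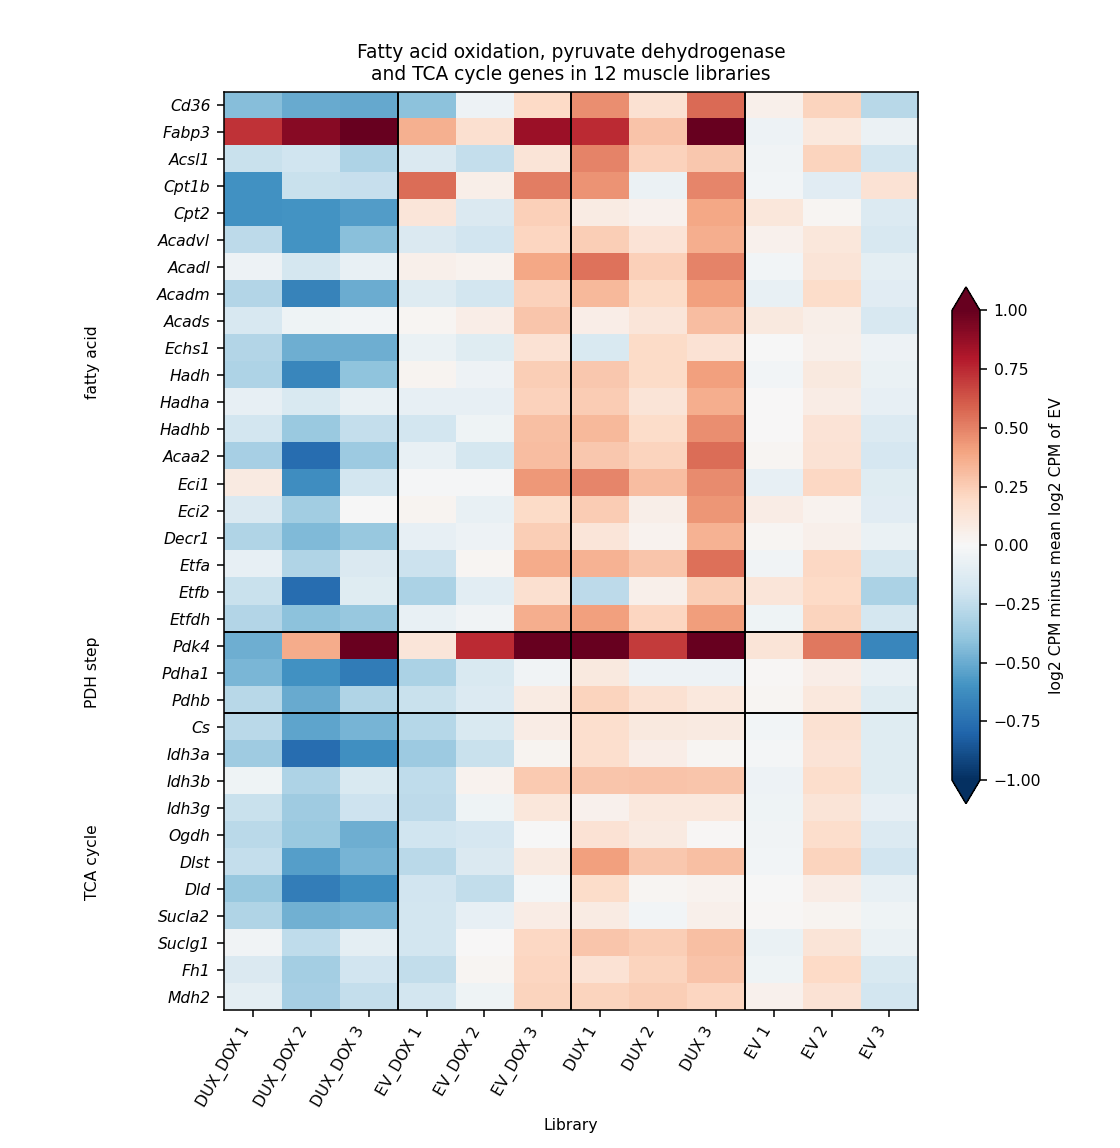
Heat map of the 34 genes (rows, by class; PDH step, pyruvate dehydrogenase step) in the 12 libraries (columns), coloured by log2 CPM minus the mean log2 CPM of the 3 EV libraries, with colours limited to -1 and 1. The DUX_DOX columns are mostly blue, EV_DOX 3 is above the EV_DOX mean in all 34 rows, and Fabp3 stands apart as red in all 3 DUX_DOX libraries.

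Uptake and activation of fatty acids held no call in DUX_DOX against EV_DOX. Cd36, which carries long-chain fatty acids across the plasma membrane and is also made by endothelial cells, fat cells and macrophages, had 212, 201 and 199.8 CPM in DUX_DOX, 215, 274 and 327 in EV_DOX, 394, 316 and 421 in DUX and 295, 333 and 236 in EV. The 3 DUX_DOX values were close together and below every value of the other groups, and the EV_DOX values were spread widely. Its log2 fold change was -0.41 ± 0.15 (SE) against EV_DOX (edgeR, adjusted p = 0.0634), and it fell by 0.88 ± 0.15 on the log2 scale against DUX (edgeR, adjusted p = 0.000788). In the comparison with EV_DOX, leaving out a library brought Cd36 under the threshold with edgeR adjusted p-values of 0.0116 without EV_DOX 1, 0.0495 without EV 2 and 0.0479 without EV 3, and upper-quartile factors (0.0451) and DESeq2 (0.0271) did so too, within a range of 0.0116 to 0.257 over the 19 alternatives. Acsl1, the main muscle ligase that makes acyl-CoA, had 303, 307 and 285 CPM in DUX_DOX, 319, 299 and 386 in EV_DOX, 497, 414 and 426 in DUX and 344, 410.3 and 310.2 in EV. DUX_DOX and EV_DOX overlapped in Acsl1, and it fell in DUX_DOX against DUX, with a log2 fold change of -0.58 ± 0.12 (edgeR, adjusted p = 0.00258).

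Fabp3, the fatty acid binding protein of heart and oxidative muscle that ferries fatty acids through the cytosol, was the 1 gene of the 34 with a positive fold change in DUX_DOX against EV_DOX. It had 199, 227 and 277 CPM in DUX_DOX, 154, 135 and 218 in EV_DOX, 202, 147 and 248 in DUX and 116, 129.7 and 116 in EV. EV had the lowest values, with no overlap with the other groups, while DUX_DOX, EV_DOX and DUX overlapped one another. Its log2 fold change was 0.47 ± 0.19 against EV_DOX (edgeR, adjusted p = 0.0849), and the edgeR adjusted p was 0.0164 without EV_DOX 3, within a range of 0.0164 to 0.307 over the 19 alternatives. Exons of Fabp3 share 19.6% of their bases with genes on the opposite strand, and the strand setting of the counting is not given in the sources used here.

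Both genes of the carnitine shuttle fell, and against EV_DOX they had the lowest fitted fold changes of the 34. Cpt2 encodes the inner-membrane enzyme that turns acylcarnitine back into acyl-CoA inside the mitochondrion. It had 51.2, 51.5 and 52.8 CPM in DUX_DOX, 84.8, 70.4 and 91.9 in EV_DOX, 82.4, 80.3 and 102 in DUX and 84.3, 79.0 and 71.0 in EV. The 3 DUX_DOX libraries agreed closely, and each lay well below the lowest of the other 9. Cpt2 fell by 37.1% in DUX_DOX against EV_DOX, a log2 fold change of -0.67 ± 0.11 (edgeR, adjusted p = 0.000665), and its log2 fold change against DUX was -0.77 ± 0.11 (edgeR, adjusted p = 0.000205). The stretch of chr4:107923611-107923760 (GRCm38.p6, minus strand, read 5′ to 3′, RefSeq), 150 bases upstream of the first exon, is shown because Cpt2 had the smallest adjusted p of the 34 genes against EV_DOX, with GC boxes (GGGCGG) in capitals.
Cpt2: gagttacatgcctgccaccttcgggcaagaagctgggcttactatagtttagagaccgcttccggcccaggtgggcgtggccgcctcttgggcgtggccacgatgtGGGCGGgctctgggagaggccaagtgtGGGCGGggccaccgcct
Of the 34 genes, 30 had a RefSeq window of 250 bases before the start, and 18 of these 30 held GGGCGG on either strand, against 35.4% of the 27025 genes with a window. The half-site AGGTCA, which PPAR and ERR can bind, lay in the windows of 6 of 30, against 15.8% of genes. Its repeat with 1 spacer base, AGGTCANAGGTCA, lay in 0 of 30 and in 0.04% of genes. These matches are letters in the window and not measured binding.

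Cpt1b, the muscle enzyme of the outer membrane that commits acyl-CoA to oxidation, was counted at a very low level. It had 1.37, 1.79 and 1.78 CPM in DUX_DOX, 3.07, 2.17 and 2.97 in EV_DOX, 2.85, 2.00 and 2.91 in DUX and 2.04, 1.92 and 2.30 in EV. Its DUX_DOX values lay below all EV_DOX values, with log2 fold changes of -0.73 ± 0.23 against EV_DOX (edgeR, adjusted p = 0.032) and -0.65 ± 0.23 against DUX (edgeR, adjusted p = 0.049). The annotation gives 81.4% of its exon bases also to a read-through gene on the same strand, Gm44502, so the 18 to 42 raw counts per library are an uncertain measure of Cpt1b. Against EV_DOX its call was lost with edgeR adjusted p-values of 0.1 without DUX_DOX 1, 0.0529 without DUX_DOX 2, 0.0616 without DUX_DOX 3, 0.0913 without EV_DOX 1 and 0.0926 without EV_DOX 3, and with 0.0647 when only the groups compared were fitted and 0.07 by DESeq2, within a range of 0.0173 to 0.1 over the 19 alternatives. Against DUX it was lost with edgeR adjusted p-values of 0.138 without DUX_DOX 1, 0.0744 without DUX_DOX 2, 0.0799 without DUX_DOX 3, 0.0542 without EV_DOX 3, 0.138 without DUX 1, 0.15 without DUX 3, 0.0583 without EV 1, 0.0527 without EV 2 and 0.0564 without EV 3, and with 0.051 when only the groups compared were fitted, 0.108 by DESeq2 and 0.0627 by limma-voom, within a range of 0.0303 to 0.15.

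**Figure D2:**
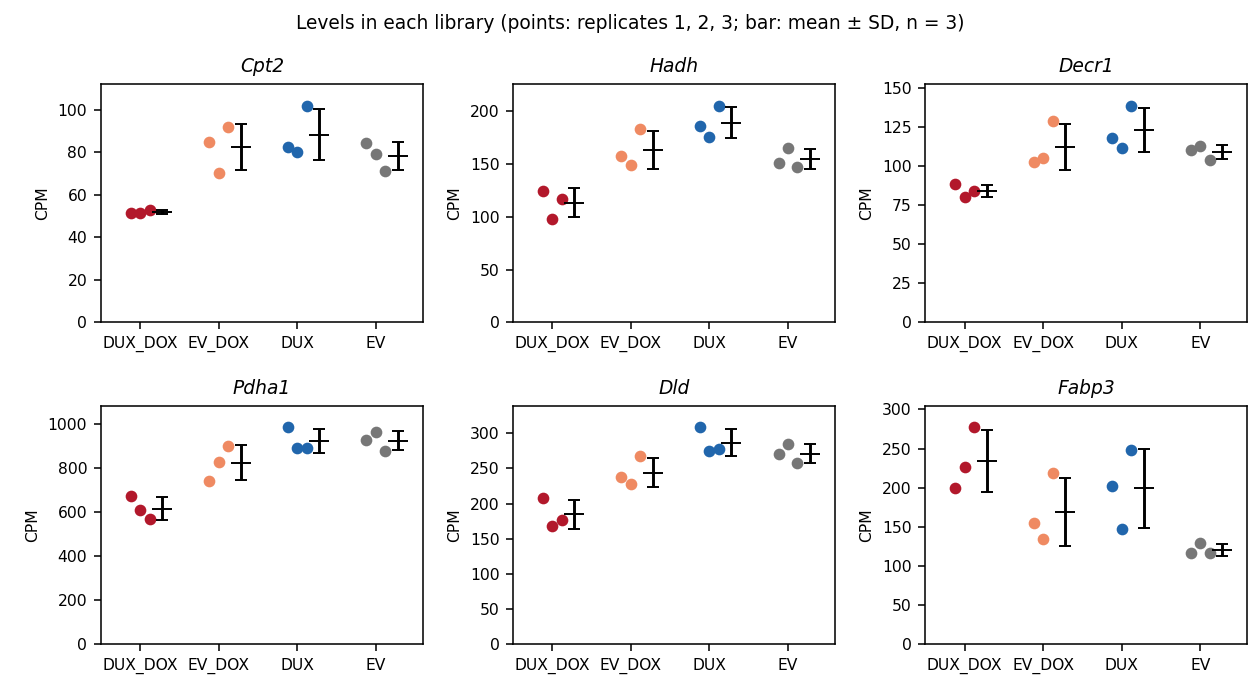
Levels in CPM of Cpt2, Hadh, Decr1, Pdha1, Dld and Fabp3 in each library of DUX_DOX, EV_DOX, DUX and EV (points, replicates 1 to 3 from left to right) with the group mean and SD (n = 3). In all panels but that of Fabp3, the 3 DUX_DOX points lie below all points of the other groups.

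The acyl-CoA dehydrogenases begin each round of oxidation, and Acadvl, Acadl, Acadm and Acads take acyl chains of falling length. Acadm and Acadvl fell in DUX_DOX against EV_DOX, and 3 of the 4 genes fell against DUX. Acadm had 216, 167 and 188 CPM in DUX_DOX, 242, 234 and 311 in EV_DOX, 332, 303 and 352 in DUX and 252, 300.4 and 246 in EV. Acadvl had 254, 202 and 228 CPM in DUX_DOX, 275, 267 and 354 in EV_DOX, 362, 334 and 391 in DUX and 314, 329.9 and 272 in EV. In both genes DUX_DOX lay wholly below the other 3 groups, with DUX_DOX 2 the lowest library. The log2 fold changes against EV_DOX were -0.46 ± 0.13 for Acadm (edgeR, adjusted p = 0.016) and -0.39 ± 0.12 for Acadvl (edgeR, adjusted p = 0.0319). Against DUX they were -0.79 ± 0.13 for Acadm (edgeR, adjusted p = 0.000429) and -0.67 ± 0.12 for Acadvl (edgeR, adjusted p = 0.00115). The call of Acadm against EV_DOX was lost with edgeR adjusted p-values of 0.0677 without DUX_DOX 2, 0.0542 without DUX_DOX 3 and 0.0778 without EV_DOX 3, within a range of 0.00218 to 0.0778. That of Acadvl was lost with 0.117 without DUX_DOX 2, 0.0837 without DUX_DOX 3 and 0.151 without EV_DOX 3, and with 0.0665 when only the groups compared were fitted, within a range of 0.00884 to 0.151. Exons of Acadvl share 42.9% of their bases with a gene on the opposite strand, Dvl2. Acadl had 251, 230.1 and 247 CPM in DUX_DOX, 270.1, 266 and 341 in EV_DOX, 379, 307 and 366 in DUX and 255, 285 and 243 in EV. Its DUX_DOX libraries were below all EV_DOX and DUX libraries, while EV 3 lay among them, and its log2 fold change was -0.27 ± 0.11 against EV_DOX (edgeR, adjusted p = 0.0933) and -0.53 ± 0.11 against DUX (edgeR, adjusted p = 0.00293). Acads had log2 fold changes of -0.20 ± 0.10 and -0.24 ± 0.10 in the same 2 comparisons, with 68.2, 73.7 and 74.8 CPM in DUX_DOX, against 77.2, 79.5 and 92.1 CPM in EV_DOX, and passed neither test (edgeR, adjusted p = 0.146 and 0.0706).

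Acadm, the medium-chain enzyme, is also the 1 gene of the 30 with the extended half-site AAGGTCA, which contains AGGTCA and is bound by ERR, within 250 bases of its start, where 4.70% of genes have it. The window is chr3:153944644-153944893 (GRCm38.p6, minus strand, read 5′ to 3′, RefSeq), printed to show where the match, in capitals and on the opposite strand, lies. No binding was measured there.
Acadm: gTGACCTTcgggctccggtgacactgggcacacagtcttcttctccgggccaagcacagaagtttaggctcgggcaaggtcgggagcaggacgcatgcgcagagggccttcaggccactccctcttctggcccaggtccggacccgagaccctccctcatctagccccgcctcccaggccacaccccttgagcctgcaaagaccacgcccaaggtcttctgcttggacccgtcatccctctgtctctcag

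The enzymes that hydrate the enoyl-CoA, oxidise it again and split off acetyl-CoA are Echs1 and Hadh for short and medium chains, the trifunctional protein subunits Hadha and Hadhb for long chains, and the thiolase Acaa2. Against EV_DOX, Hadh, Echs1 and Acaa2 fell, and against DUX all 5 fell. Hadh had 125, 98.3 and 117 CPM in DUX_DOX, 158, 149 and 183 in EV_DOX, 187, 176 and 205 in DUX and 151, 166 and 147 in EV. Every DUX_DOX value was under every value of the other groups, and the log2 fold changes were -0.53 ± 0.11 against EV_DOX (edgeR, adjusted p = 0.00254) and -0.74 ± 0.11 against DUX (edgeR, adjusted p = 0.000174). In DUX_DOX against DUX its adjusted p was the smallest of the 34 genes. Echs1 had 59.6, 52.0 and 52.1 CPM in DUX_DOX, 69.8, 67.0 and 80.7 in EV_DOX, 65.5, 83.4 and 80.5 in DUX and 72.7, 75.7 and 70.5 in EV. It too separated DUX_DOX from the other 3 groups, with log2 fold changes of -0.41 ± 0.10 against EV_DOX (edgeR, adjusted p = 0.00983) and -0.49 ± 0.10 against DUX (edgeR, adjusted p = 0.00292). Acaa2 had 95.1, 70.9 and 93.3 CPM in DUX_DOX, 114, 106 and 149 in EV_DOX, 145, 140.1 and 177 in DUX and 122, 133 and 107 in EV. Its DUX_DOX libraries were the 3 lowest of the 12, and its log2 fold change against EV_DOX was -0.51 ± 0.15 (edgeR, adjusted p = 0.0201), a call lost with edgeR adjusted p-values of 0.0843 without DUX_DOX 2 and 0.0977 without EV_DOX 3, within a range of 0.00398 to 0.0977. Against DUX it was -0.83 ± 0.15 (edgeR, adjusted p = 0.000784).

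Hadha and Hadhb encode the alpha and beta subunits of 1 protein complex and start back to back on chromosome 5, where in the GENCODE M21 models a single short stretch separates their first exons. That stretch, chr5:30155163-30155247 (GRCm38.p6, plus strand, read 5′ to 3′ towards Hadhb, letters from the RefSeq window), is 85 bases long and is shown because the subunits share it, with GGGCGG in capitals.
Hadha and Hadhb: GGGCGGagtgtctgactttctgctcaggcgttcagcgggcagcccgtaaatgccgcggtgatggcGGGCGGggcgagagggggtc
Hadha had 337, 321 and 338 CPM in DUX_DOX, 338, 338 and 418 in EV_DOX, 426, 389 and 458 in DUX and 358, 377 and 338 in EV. Hadhb had 127, 112 and 122 CPM in DUX_DOX, 127, 139.6 and 177 in EV_DOX, 181, 164 and 199 in DUX and 144, 158 and 131 in EV. In both genes DUX_DOX overlapped EV_DOX and lay below DUX. The log2 fold changes against EV_DOX were -0.14 ± 0.10 for Hadha and -0.30 ± 0.12 for Hadhb, neither past the threshold (edgeR, adjusted p = 0.336 and 0.0851). Against DUX both fell, with log2 fold changes of -0.35 ± 0.10 for Hadha (edgeR, adjusted p = 0.015) and -0.59 ± 0.12 for Hadhb (edgeR, adjusted p = 0.00236). The Hadha call against DUX was lost with edgeR adjusted p-values of 0.0502 without DUX_DOX 2 and 0.0686 without DUX 3, within a range of 0.00145 to 0.0686.

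Eci1, Eci2 and Decr1 prepare unsaturated acyl chains for the main pathway, the first pair by moving a double bond and Decr1 by reducing a dienoyl-CoA. Decr1 fell against EV_DOX and all 3 fell against DUX. Decr1 had 88.4, 80.5 and 83.8 CPM in DUX_DOX, 103, 105 and 129 in EV_DOX, 118, 112 and 139 in DUX and 110.2, 113 and 104 in EV. Its DUX_DOX values were all under its other values, with log2 fold changes of -0.42 ± 0.10 against EV_DOX (edgeR, adjusted p = 0.00891) and -0.55 ± 0.10 against DUX (edgeR, adjusted p = 0.00131). Eci1 had 69.6, 42.5 and 57.5 CPM in DUX_DOX, 64.7, 64.7 and 88.3 in EV_DOX, 91.7, 80.9 and 90.5 in DUX and 61.6, 75.4 and 60.1 in EV. Here DUX_DOX 1 was higher than EV_DOX 1 and EV_DOX 2, and the log2 fold change was -0.36 ± 0.16 against EV_DOX (edgeR, adjusted p = 0.118) and -0.63 ± 0.16 against DUX (edgeR, adjusted p = 0.00939). Eci2 had 43.5, 37.6 and 47.8 CPM in DUX_DOX, 48.9, 45.5 and 54.8 in EV_DOX, 57.2, 49.9 and 65.1 in DUX and 50.6, 49.2 and 44.3 in EV. It overlapped EV_DOX, with a log2 fold change of -0.21 ± 0.11 (edgeR, adjusted p = 0.19), and fell against DUX by 0.42 ± 0.11 on the log2 scale (edgeR, adjusted p = 0.0131), a call lost with edgeR adjusted p-values of 0.0588 without DUX_DOX 2 and 0.0691 without DUX 3, within a range of 0.00379 to 0.0691.

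Electrons from the acyl-CoA dehydrogenases pass to the flavoprotein subunits Etfa and Etfb and then to the membrane oxidoreductase Etfdh, which hands them to ubiquinone. Etfdh fell in both comparisons, and Etfa fell against DUX. Etfdh had 112, 103 and 106 CPM in DUX_DOX, 130.3, 134 and 177 in EV_DOX, 183, 159 and 184 in DUX and 133, 161 and 121 in EV. DUX_DOX held its 3 lowest values, and the log2 fold changes were -0.46 ± 0.12 against EV_DOX (edgeR, adjusted p = 0.0156) and -0.71 ± 0.12 against DUX (edgeR, adjusted p = 0.000815). The call against EV_DOX was lost with edgeR adjusted p-values of 0.0517 without DUX_DOX 2, 0.0527 without DUX_DOX 3 and 0.0765 without EV_DOX 3, within a range of 0.00254 to 0.0765. Etfa had 132, 114 and 127 CPM in DUX_DOX, 121, 142 and 181 in EV_DOX, 178, 170.1 and 205 in DUX and 137, 162 and 124 in EV. Its DUX_DOX values overlapped those of EV_DOX (log2 fold change -0.25 ± 0.14; edgeR, adjusted p = 0.199) and lay below all DUX values (-0.57 ± 0.14; edgeR, adjusted p = 0.00705). Etfb was low, with 10.1, 6.94 and 10.8 CPM in DUX_DOX, against 9.42, 10.9 and 13.1 CPM in EV_DOX, and passed no test. The annotation assigns 58.2% of its exon bases also to other genes on the same strand, so its level is uncertain.

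At the pyruvate dehydrogenase step, Pdha1 and Pdhb encode the alpha and beta subunits of the E1 enzyme, and Pdk4 a kinase that switches the complex off and is induced by fasting. Pdha1 fell in both comparisons, and Pdhb fell against DUX. Pdha1 had 670.4, 607 and 568 CPM in DUX_DOX, 740.0, 828 and 898 in EV_DOX, 984, 890.0 and 890.2 in DUX and 928, 963 and 877 in EV. All DUX_DOX values were under all others, with log2 fold changes of -0.42 ± 0.10 against EV_DOX (edgeR, adjusted p = 0.00673) and -0.58 ± 0.10 against DUX (edgeR, adjusted p = 0.000609). Exons of Pdha1 share 16.1% of their bases with Map3k15 on the opposite strand. Pdhb had 219, 186 and 215 CPM in DUX_DOX, 227, 241 and 280.4 in EV_DOX, 308, 293 and 285 in DUX and 268, 285 and 243 in EV. Its DUX_DOX libraries were its 3 lowest, with log2 fold changes of -0.27 ± 0.10 against EV_DOX (edgeR, adjusted p = 0.0591) and -0.52 ± 0.10 against DUX (edgeR, adjusted p = 0.00159). Pdk4 varied most among libraries of a group, with 166, 301 and 464 CPM in DUX_DOX, 254, 392 and 691 in EV_DOX, 812, 379 and 599.9 in DUX and 254, 336 and 148 in EV. DUX and EV did not overlap, whereas every other pair of groups did, and with a log2 fold change of -0.52 ± 0.41 against EV_DOX and -0.94 ± 0.41 against DUX it passed neither test (edgeR, adjusted p = 0.371 and 0.0956).

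In the first part of the cycle, Cs joins acetyl-CoA to oxaloacetate, and the subunits Idh3a, Idh3b and Idh3g form the NAD-dependent isocitrate dehydrogenase. Idh3a fell against EV_DOX, and all 4 genes fell against DUX. Idh3a, the catalytic subunit, had 597, 449 and 499 CPM in DUX_DOX, 594, 653 and 776 in EV_DOX, 858, 798 and 773 in DUX and 752, 838 and 702 in EV. The groups met in DUX_DOX 1 and EV_DOX 1, with log2 fold changes of -0.39 ± 0.12 against EV_DOX (edgeR, adjusted p = 0.032) and -0.65 ± 0.12 against DUX (edgeR, adjusted p = 0.00137). The call against EV_DOX was lost with edgeR adjusted p-values of 0.121 without DUX_DOX 2, 0.0994 without DUX_DOX 3 and 0.139 without EV_DOX 3, and with 0.077 when only the groups compared were fitted, within a range of 0.00692 to 0.139. Cs had 921, 770.3 and 805 CPM in DUX_DOX, 911, 999 and 1169.5 in EV_DOX, 1245, 1190.1 and 1184 in DUX and 1086, 1234 and 1021 in EV. DUX_DOX 1 was just above EV_DOX 1, with log2 fold changes of -0.30 ± 0.11 against EV_DOX (edgeR, adjusted p = 0.0615) and -0.54 ± 0.11 against DUX (edgeR, adjusted p = 0.0028). Idh3b had 469, 388 and 433 CPM in DUX_DOX, 403, 494 and 577 in EV_DOX, 583, 588 and 584 in DUX and 465, 544 and 442 in EV. Idh3g had 327, 299 and 329.9 CPM in DUX_DOX, 318, 371 and 414 in EV_DOX, 393, 409.7 and 411 in DUX and 370.0, 417 and 360.3 in EV. Both subunits overlapped EV_DOX and were lower than every DUX library, with log2 fold changes against DUX of -0.44 ± 0.12 for Idh3b (edgeR, adjusted p = 0.0151) and -0.34 ± 0.10 for Idh3g (edgeR, adjusted p = 0.0187). These 2 calls were lost with edgeR adjusted p-values of 0.0652 without DUX_DOX 2 for Idh3b, within a range of 0.00172 to 0.0652, and of 0.0692 without DUX_DOX 2, 0.0581 without DUX 2 and 0.0559 without DUX 3 for Idh3g, within a range of 0.00253 to 0.0692.

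The 2-oxoglutarate dehydrogenase complex is built from Ogdh, Dlst and Dld, and Dld also serves the pyruvate dehydrogenase complex as its shared dihydrolipoamide dehydrogenase. Dld fell against EV_DOX, and all 3 genes fell against DUX. Dld had 209, 168 and 177 CPM in DUX_DOX, 237, 228 and 267 in EV_DOX, 309, 275 and 277 in DUX and 271, 285 and 258 in EV. No DUX_DOX library reached the lowest library of another group, and the log2 fold changes were -0.41 ± 0.10 against EV_DOX (edgeR, adjusted p = 0.00792) and -0.64 ± 0.10 against DUX (edgeR, adjusted p = 0.000298). Dlst had 311, 251 and 266 CPM in DUX_DOX, 304, 332 and 391 in EV_DOX, 488, 442 and 451 in DUX and 359, 427 and 321 in EV. DUX_DOX 1 lay above EV_DOX 1, and DUX was the highest group, with log2 fold changes of -0.31 ± 0.12 against EV_DOX (edgeR, adjusted p = 0.0786) and -0.74 ± 0.12 against DUX (edgeR, adjusted p = 0.000558). Ogdh had 1083, 1009 and 929 CPM in DUX_DOX, 1141, 1160.3 and 1305 in EV_DOX, 1444, 1388 and 1317 in DUX and 1273, 1474 and 1190.3 in EV. Its DUX_DOX libraries were the 3 lowest, with log2 fold changes of -0.26 ± 0.10 against EV_DOX (edgeR, adjusted p = 0.086) and -0.46 ± 0.10 against DUX (edgeR, adjusted p = 0.00472).

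From succinyl-CoA to oxaloacetate the measured enzymes were Suclg1 and Sucla2, the alpha subunit and the ATP-forming beta subunit of succinyl-CoA ligase, the fumarase Fh1 and the malate dehydrogenase Mdh2. Sucla2 fell against EV_DOX, and all 4 fell against DUX. Sucla2 had 397, 350.3 and 355 CPM in DUX_DOX, 430.1, 463 and 515 in EV_DOX, 517, 479 and 506 in DUX and 494, 499 and 475 in EV. DUX_DOX lay below all other libraries, with log2 fold changes of -0.35 ± 0.09 against EV_DOX (edgeR, adjusted p = 0.00945) and -0.45 ± 0.09 against DUX (edgeR, adjusted p = 0.00189). Suclg1 had 259, 222 and 248 CPM in DUX_DOX, 233, 266 and 306 in EV_DOX, 322, 315 and 327 in DUX and 254, 291 and 253 in EV. In the partner subunit DUX_DOX and EV_DOX overlapped, and the log2 fold change was -0.14 ± 0.10 against EV_DOX (edgeR, adjusted p = 0.33) and -0.40 ± 0.10 against DUX (edgeR, adjusted p = 0.00915). Fh1 had 205, 179 and 199 CPM in DUX_DOX, 191, 230.3 and 264 in EV_DOX, 251, 265 and 278 in DUX and 220.3, 261 and 204 in EV. Mdh2 had 807, 687 and 732 CPM in DUX_DOX, 759, 838 and 1009 in EV_DOX, 1009, 1027 and 999.6 in DUX and 887, 955 and 759 in EV. Both overlapped EV_DOX, with log2 fold changes of -0.23 for Fh1 and -0.23 for Mdh2 that did not pass the test, and both lay below every DUX library. Against DUX the log2 fold changes were -0.44 ± 0.12 for Fh1 (edgeR, adjusted p = 0.0122), a call lost with an edgeR adjusted p of 0.0522 without DUX_DOX 2, within a range of 0.00127 to 0.0522, and -0.45 ± 0.12 for Mdh2 (edgeR, adjusted p = 0.0107).

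Set side by side, 9 of 20 fatty acid genes and 3 of 11 TCA cycle genes fell in DUX_DOX against EV_DOX. The TCA count was 6 of 11 with upper-quartile factors or with DESeq2, 5 without DUX_DOX 1 and 7 without EV_DOX 1, and the fatty acid count was 4 without DUX_DOX 2, 5 without DUX_DOX 3 and 4 without EV_DOX 3. The median log2 fold change was -0.37 for fatty acid genes and -0.26 for TCA genes, and the difference of their means was -0.06. That difference ran from -0.11 to -0.02 over the 19 alternatives. As the mean log2 CPM of the fatty acid genes minus that of the TCA genes within each library, the values averaged -2.16 ± 0.07 in DUX_DOX, -2.11 ± 0.09 in EV_DOX, -2.13 ± 0.13 in DUX and -2.25 ± 0.03 in EV (SD, n = 3 each). DUX_DOX ranged from -2.23 to -2.09 and EV_DOX from -2.22 to -2.06, so the pair of groups overlapped on this measure. This contrast between the classes is a description without a test, since members of a pathway are not replicates.

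Per length of exon, the TCA cycle and pyruvate dehydrogenase genes made up most of the top of the order. The length counts every exon base annotated to a gene in any transcript, for example 823 bases for Fabp3 and 8286 for Echs1. The order therefore depends on the annotation as well as on the counts, and is not a ranking of transcript abundance. On the scale of CPM per kb in EV, Pdha1 had 247 ± 11.7, Mdh2 244 ± 27.9, Ogdh 241 ± 26.7 and Cs 193 ± 18.9 (SD, n = 3), and the first 3 of these did not differ beyond their spread. The fatty acid genes with the highest levels per length in EV were Fabp3 at 147 ± 9.42, Acadl at 130.0 ± 10.7 and Acadvl at 114 ± 11.1 CPM per kb. At the bottom stood Echs1 at 8.80 ± 0.313, Eci2 at 8.67 ± 0.590 and Cpt1b at 0.619 ± 0.0575 CPM per kb. The place of Cpt1b is uncertain, since 81.4% of its exon bases are also annotated to Gm44502. In DUX_DOX the order was led by Fabp3 at 285 ± 48.0 CPM per kb, ahead of Mdh2 at 208 ± 17.1 and Ogdh at 185 ± 14.1.

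Doxycycline chow in muscles with the Dux vector, DUX_DOX against DUX, gave a wider count. Here 30 of 34 genes fell and 0 rose, where 13.1% of all genes tested fell and 16.5% rose. The exceptions were Fabp3, Acads, Etfb and Pdk4. All 11 TCA cycle genes, 17 of 20 fatty acid genes and 2 of 3 pyruvate dehydrogenase genes were among the 30, and 24 of the 30 calls held under all 19 alternatives. In 31 of 34 genes every DUX_DOX library lay below every DUX library, which was so for 22.6% of all genes tested. The median log2 fold change was -0.58 for fatty acid genes and -0.45 for TCA genes, against 0.01 over all genes tested. Markers of other cells were counted in this comparison too. Of 9 adipocyte markers 7 fell (median log2 fold change -1.01), their summed level being 264 to 357 CPM in DUX_DOX and 506 to 543 CPM in DUX. In EV_DOX against EV, 0 of these 9 were called and 8 had negative fitted values, with a median of -0.69. The 24 macrophage and monocyte markers had 17 calls, all higher (median 0.86), and of 5 red blood cell markers 1 fell (median -0.74), with summed levels of 169 to 255 CPM in DUX_DOX and 224 to 537 CPM in DUX. Of 13 fast fibre genes 3 fell, and of 12 slow and oxidative fibre genes 3 fell and 1 rose. Fitted values of the slow and oxidative list were positive in 8 of 12 genes (median 0.79). Its summed level was 2468 to 3326 CPM in DUX_DOX and 4542 to 4964 CPM in DUX. Of 17 endothelial markers 4 fell and 2 rose, of 8 satellite cell markers 2 rose, and of 10 fibroblast markers none was called. The part of these cell types in the fall of the 30 genes was not tested. Both comparisons use the same 3 DUX_DOX libraries, so their counts are not independent of each other.

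**Figure D3:**
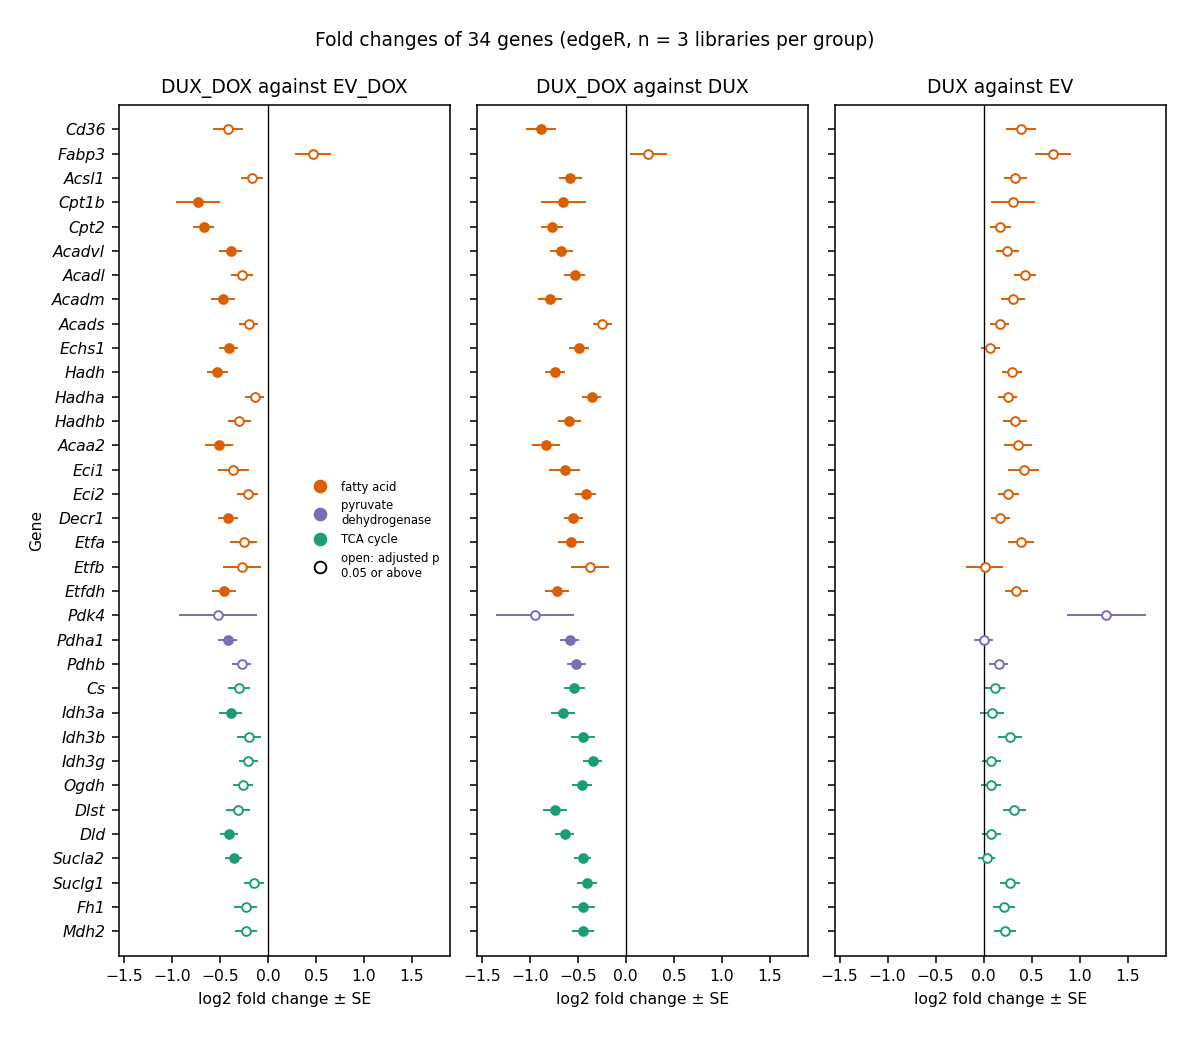
Fitted log2 fold changes with SE (edgeR, 3 libraries per group) of the 34 genes in DUX_DOX against EV_DOX, DUX_DOX against DUX and DUX against EV, coloured by class, with filled points where the adjusted p was under 0.05. Filled points number 13, 30 and 0 in the 3 panels, and most points of the last panel lie right of 0.

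Without doxycycline, DUX against EV gave 0 calls among the 34 genes and among all genes tested by edgeR (0% lower and 0% higher). At an unadjusted p under 0.05, 17 of the 34 genes were past the line, as were 15.8% of all genes tested. That count was 9 without DUX 1, 6 without DUX 3, 11 without EV 1 and 3 without EV 3. It was 16 to 19 without any other 1 library. Over all genes, 2012 were past that line, with 1178 without EV 3 and 2872 without EV 2. Without EV 2, edgeR called 68 genes higher and 50 lower over all genes tested. The smallest edgeR adjusted p of the 34 genes was then 0.0713. Of the other tools, limma-voom called 0 of the 34 and DESeq2 called 2, Fabp3 (log2 fold change 0.72, adjusted p = 0.0171) and Acadl (0.43, adjusted p = 0.0226). Over all 12751 genes tested, limma-voom called 0, and DESeq2 called 60 higher and 93 lower. Fitted log2 fold changes were positive in 33 of 34 genes, with a median of 0.25, against 0.00 over all genes tested. They were also positive in 72 of 72 nuclear oxidative phosphorylation subunits (median 0.31) and in 20 of 30 glycolysis and glycogen genes (median 0.07). In 17 genes all 3 DUX libraries lay above all 3 EV libraries, which held for 11.3% of all genes tested. Pdk4 had the largest fitted value, with a log2 fold change of 1.28 ± 0.41 (edgeR, adjusted p = 0.215). The smallest adjusted p of the 34 genes by edgeR was 0.192, that of Acadl. The DUX libraries of this comparison are those set against DUX_DOX above.

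For doxycycline chow alone, EV_DOX against EV, edgeR gave 0 calls among the 34 genes, where 0% of all genes tested fell and 0.0392% rose. At an unadjusted p under 0.05 there was 1 gene of the 34, Fabp3, with a log2 fold change of 0.49 ± 0.19 (edgeR, adjusted p = 0.582), where 7.83% of all genes tested were past that line. Leaving out 1 library gave 0 to 2 genes, with 0 without EV 1 and 0 without EV 3, and 2 without any 1 of DUX_DOX 1, DUX_DOX 3, EV_DOX 1, EV_DOX 2, EV_DOX 3, DUX 2 or EV 2. Neither DESeq2 nor limma-voom called any. The median log2 fold change of the 34 genes was 0.01, and its sign turned to give -0.12 without EV_DOX 3, -0.04 without EV 3 and -0.01 without EV 1. The groups overlapped in 33 of 34 genes, the exception being Fabp3, while 12.1% of all genes tested had no overlap.

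The interaction of vector and chow asks whether the DUX_DOX to EV_DOX difference departs from the DUX to EV difference, and is given as the log2 fold change under doxycycline chow minus that under normal chow. It was past the threshold and negative in 14 of 34 genes and positive in 0, where 3.43% of all genes tested were lower and 6.97% higher. The genes were Cd36, Cpt2, Acadvl, Acadl, Acadm, Echs1, Hadh, Hadhb, Acaa2, Eci1, Decr1 and Etfdh, making 12 of 20 fatty acid genes, with Dlst and Dld of 11 TCA cycle genes. Among these 14 genes the lowest values were those of Acaa2 (-0.86 ± 0.20; edgeR, adjusted p = 0.0166) and Cpt2 (-0.84 ± 0.16; edgeR, adjusted p = 0.00418). The median of the interaction was -0.64 for fatty acid genes and -0.44 for TCA genes, against 0.01 over all genes tested. It was -0.50 for 72 nuclear oxidative phosphorylation subunits (8 called lower) and -0.37 for 30 glycolysis and glycogen genes (4 called lower). The calls of Cpt2, Acadl, Acadm, Hadh, Acaa2 and Etfdh held under all 18 alternatives. The count of 14 was 6 without DUX_DOX 2, 8 without DUX_DOX 3, 26 without EV_DOX 1 and 7 without EV_DOX 3. It was 8 without DUX 1, 6 without DUX 3, 7 without EV 1 and 6 without EV 3, and 24 with DESeq2. Lower calls over all genes tested numbered 437, and 212, 278, 899 and 207 without DUX_DOX 2, DUX_DOX 3, EV_DOX 1 and EV_DOX 3. They numbered 226, 211, 244 and 194 without DUX 1, DUX 3, EV 1 and EV 3, and 591 with DESeq2.

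Genes around the same pathway are given from lists of other members. Of 39 other measured genes of fatty acid oxidation, 19 fell and 1 rose in DUX_DOX against EV_DOX, with a median log2 fold change of -0.32. Mlycd, which degrades malonyl-CoA and so lifts the brake on Cpt1, fell by 0.56 ± 0.11 on the log2 scale (edgeR, adjusted p = 0.00241), and the acyl-CoA thioesterase Acot11 had a log2 fold change of -1.08 ± 0.20 (edgeR, adjusted p = 0.00129). Acot9, another thioesterase, was the gene that rose, with 0.67 ± 0.10 (edgeR, adjusted p = 0.00025), and Hibch, of valine breakdown, had -0.51 ± 0.10 (edgeR, adjusted p = 0.00255). Among 39 other pyruvate and TCA cycle genes, 8 fell and 3 rose, with a median of -0.28. Pdk3, a kinase of the pyruvate dehydrogenase complex like Pdk4, rose, with 5.10 ± 0.920 CPM in DUX_DOX and 1.75 ± 0.310 CPM in EV_DOX (SD, n = 3 each) and a log2 fold change of 1.54 ± 0.21 (edgeR, adjusted p = 0.000144). Lipt1, which attaches the lipoyl group to the 2-oxoacid dehydrogenases, rose by 1.12 ± 0.17 on the log2 scale (edgeR, adjusted p = 0.000312). The cytosolic isocitrate dehydrogenase Idh1 had -0.45 ± 0.09 (edgeR, adjusted p = 0.00193), and D2hgdh, which oxidises D-2-hydroxyglutarate, -0.67 ± 0.09 (edgeR, adjusted p = 0.000123).

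Among peroxisomal beta-oxidation genes, 5 of 19 fell and 2 rose. Crot, which makes carnitine esters of chains shortened in the peroxisome, rose by 0.67 ± 0.10 on the log2 scale (edgeR, adjusted p = 0.000229), and the thiolase and carrier gene Scp2 and the peroxisomal importer Abcd2 fell. Of 26 regulators, 9 fell and 3 rose. Ppargc1a, which encodes PGC-1alpha, had 28.9 ± 4.57 CPM in DUX_DOX and 47.4 ± 3.83 CPM in EV_DOX (SD, n = 3 each) and a log2 fold change of -0.71 ± 0.12 (edgeR, adjusted p = 0.00059). Ppara, the fatty acid receptor PPARalpha, was low at 2.84 ± 0.414 CPM in DUX_DOX and 5.77 ± 1.93 CPM in EV_DOX and had -1.02 ± 0.24 (edgeR, adjusted p = 0.00581). Ppard had -0.13 ± 0.09 and Esrra -0.25 ± 0.11, and neither passed (edgeR, adjusted p = 0.312 and 0.0987). The AMP-activated kinase subunits Prkag3 and Prkaa2 fell, and the mitochondrial biogenesis factor Nrf1 rose by 0.51 ± 0.10 (edgeR, adjusted p = 0.00207).

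As comparison lists, 3 of 72 nuclear oxidative phosphorylation subunits fell in DUX_DOX against EV_DOX and 0 rose, with a median log2 fold change of -0.16. Those 3 were Ndufs1 of complex I, Uqcrc2 of complex III and Atp5a1 of ATP synthase, and in DUX_DOX against DUX 34 of 72 fell. Of 30 glycolysis and glycogen genes, 10 fell and 2 rose, with a median of -0.30. The phosphorylase kinase subunits Phkg1 and Phkb and the bifunctional regulator Pfkfb1 were among the genes that fell. In DUX_DOX against DUX, 21 of the 30 fell and 2 rose, with a median of -0.47, beside -0.35 for the 72 subunits. These counts carry no test of 1 list against another.

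**Figure D4:**
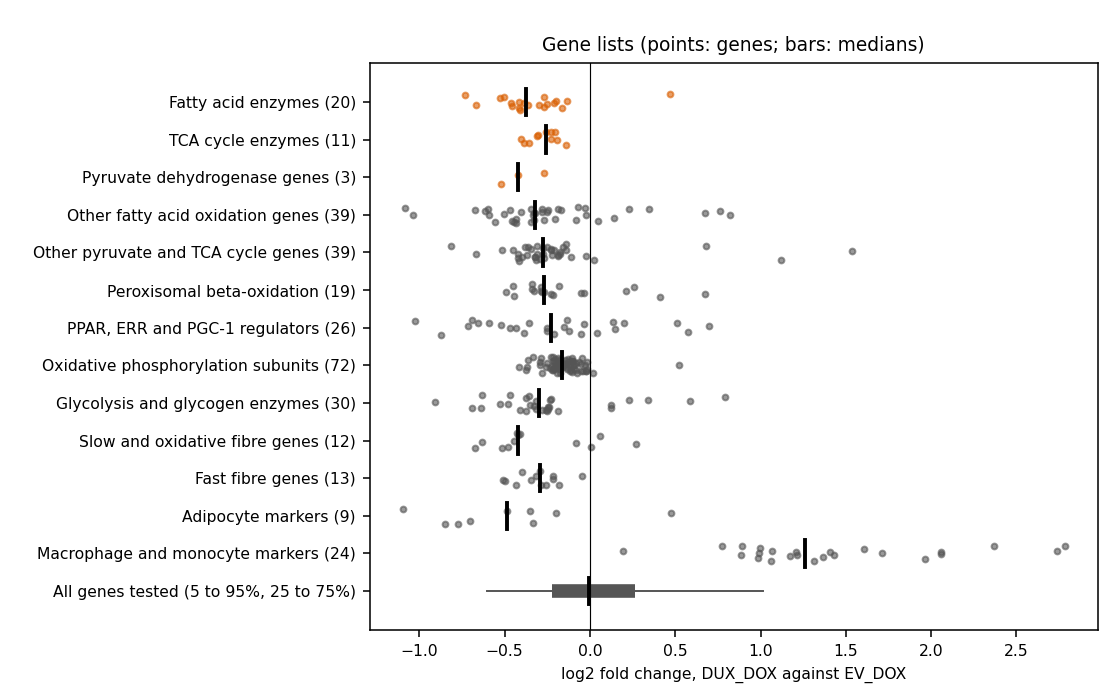
Fitted log2 fold changes in DUX_DOX against EV_DOX for the genes of each list (points, with list medians as bars and the number of genes in brackets), above the 5th to 95th percentile (line) and 25th to 75th percentile (thick bar) of all genes tested. The medians of the fatty acid genes (-0.37) and TCA genes (-0.26) lie below the 25th percentile of all genes (-0.22), close to those of glycolysis and glycogen genes (-0.30) and fast fibre genes (-0.29), and the macrophage list lies far to the right (1.26).

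Markers of the other cells of whole muscle were counted in DUX_DOX against EV_DOX too, where 10.3% of all genes tested fell and 14.9% rose. Among markers of macrophages and monocytes, 22 of 24 rose and 0 fell, their summed level being 393 to 565 CPM in DUX_DOX, 156 to 219 in EV_DOX, 234 to 264 in DUX and 162 to 250.5 in EV, with no marker at 0. Of 13 fast fibre genes 4 fell and 0 rose, with a median log2 fold change of -0.29, and of 12 slow and oxidative fibre genes 1 fell and 0 rose, with a median of -0.42. Of 9 measured adipocyte markers 2 fell, their summed level being 264 to 357 CPM in DUX_DOX and 390.4 to 488 CPM in EV_DOX. Of 17 endothelial markers 2 rose and 2 fell, of 10 fibroblast markers 1 rose, of 8 satellite cell markers 2 rose, and of 5 red blood cell markers none was called. The 34 genes summed to 8365 to 9395 CPM in DUX_DOX, 9664 to 12639 in EV_DOX, 12263 to 13495 in DUX and 10073 to 12241 in EV. The part of these cell types in the changes of the 34 genes was not tested.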

How the data were processed

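The authors deposited raw read counts per gene, and the submitters' processing notes name GRCm38 as the build and bcl2fastq (2.17.1.14), STAR and featureCounts as tools. The sources used here do not give the annotation, the strand setting or the other versions. RNA (200 ng) was poly-A selected, per the labels' protocols. The table holds 12752 genes with a lowest mean count of 10.0 per library, so genes below that are not analysed here. Replicate libraries differed beyond counting noise (chi-square per degree of freedom 4.89 to 25.9). Counts of all 12 libraries were fitted with edgeR 4.0.16 in R 4.3.3 (quasi-likelihood F test, two-sided, TMM factors 0.916 to 1.12, default filter, 1 mean per group), and SE was taken from the F statistic. The steps were tested on simulated data. Alternatives were RLE and upper-quartile factors, no filter, DESeq2 1.42.0, limma-voom (limma 3.58.1), a replicate block, the compared groups alone and each library left out. Exon lengths and overlaps came from GENCODE M21, in which 12723 of the genes were found. The members and lists were chosen with earlier results of these data known. Every library's values are given for members past the threshold in DUX_DOX against EV_DOX or DUX or in the interaction, and other lists are named by their 4 smallest p-values, with Ppargc1a, Ppara, Ppard and Esrra in any case. Some genes that this rule names are not reported here.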

Additional observations from a re-analysis of the deposited data

Results flagged for a closer look

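The difference between vectors departed from one chow to the other in 14 of the 34 genes by the interaction test of edgeR (adjusted p under 0.05), each with a lower value under doxycycline chow. As log2 fold change of DUX_DOX against EV_DOX minus that of DUX against EV, uptake and carnitine shuttle genes had -0.80 (Cd36) and -0.84 (Cpt2). Among the acyl-CoA dehydrogenases the values were -0.64 (Acadvl), -0.70 (Acadl) and -0.77 (Acadm). Later steps of the round gave -0.48 (Echs1), -0.82 (Hadh), -0.62 (Hadhb) and -0.86 (Acaa2). The accessory enzymes and the electron carrier gave -0.78 (Eci1), -0.59 (Decr1) and -0.80 (Etfdh), and the TCA cycle genes -0.63 (Dlst) and -0.49 (Dld). In all 14 genes the fitted difference between vectors was negative under doxycycline chow and positive under normal chow, and under normal chow none of them passed the edgeR test.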

How the results depend on the processing

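No fold change of the 34 genes in DUX_DOX against EV_DOX, DUX_DOX against DUX or the interaction changed sign under the alternatives run, and RLE or upper-quartile factors and DESeq2 left the median of the 34 genes minus that of all genes at -0.30 in DUX_DOX against EV_DOX. Upper-quartile factors gave 1709 higher and 1647 lower calls over all genes there (50.9% higher), against 59.1% higher with TMM factors. In that comparison, leaving out 1 library gave 7 to 20 genes called, 4 to 11 fatty acid genes and 2 to 7 TCA genes lower. Lower calls over all genes tested then ran from 739 to 1385. In the same comparison 6 TCA genes were lower with upper-quartile factors and 6 with DESeq2. In DUX_DOX against DUX the count stayed at 24 to 31 of 34 under all alternatives. DESeq2 called 2 of the 34 genes in DUX against EV, where it called 60 higher and 93 lower among the 12751 genes tested. The interaction gave 24 genes with DESeq2 and 9 with the replicate block, with 7 and 0 TCA genes lower. Leaving out 1 library gave 6 to 26 genes, 6 to 14 fatty acid genes and 0 to 9 TCA genes. Lower interaction calls over all genes tested then ran from 194 to 899. The cause was not tested. Whether the replicate numbers pair the samples was not settled, and 3 libraries per group are too few to settle it. Only groups on the same chow could share a mouse. For DUX_DOX and EV_DOX, correlations of the deviations of same-numbered libraries from their group means were -0.112, 0.0943 and 0.00476. For DUX and EV they were -0.105, 0.176 and 0.117. Over all 4 pairs of groups, chow pairs included, they ran from -0.419 to 0.204, and in 0 of these pairs were all 3 over 0.1. A library correlated best with its own number in 2 of 6 checks for DUX_DOX and EV_DOX and 3 of 6 for DUX and EV. Over all 4 pairs this held in 9 of 24 checks. With the replicate block 13 genes were called in DUX_DOX against EV_DOX, 12 lower and Fabp3 higher (edgeR, adjusted p = 0.0345), with Idh3a lost (0.0507), and in DUX_DOX against DUX the block lost Cpt1b (0.056). In the interaction it lost Cd36, Echs1, Eci1, Dlst and Dld (edgeR, adjusted p = 0.0514 to 0.0749). The measure of Cpt1b is limited by its 18 to 42 counts per library, with 81.4% of its exon bases also annotated to Gm44502.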
